A study of Mus musculus with 12 samples.

Results

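The clustered protocadherin genes of the mouse were described here in retina, across Pilrb1/2 wild-type and knockout animals at 28 days after birth (P28) and at 12 months. Members were all rows of the deposited gene table on chromosome 18 whose symbol is Pcdha, Pcdhb, Pcdhga, Pcdhgb, Pcdhac or Pcdhgc followed by a number, which took 58 of 53028 rows. They fell into an alpha cluster of 14 genes, a beta cluster of 22 and a gamma cluster of 22. In GRCm38 coordinates the clusters lie in that order on chromosome 18, alpha from 36930184 to 37187661, beta from 37264938 to 37524479 and gamma from 37661793 to 37841873. There were 5 C-type members, the divergent genes at the end of the alpha and gamma arrays: Pcdhac1, Pcdhac2, Pcdhgc3, Pcdhgc4 and Pcdhgc5. Pcdha11 is the name of 2 rows, which are kept apart here by their identifiers, ENSMUSG00000007440 and ENSMUSG00000102206.

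Clustered protocadherins are cell adhesion proteins of neurons. Each neuron transcribes a small set of them from separate promoters, and the proteins form mixed dimers that bind only cells carrying a matching set, so that branches of one cell recognise and avoid each other. In the retina the gamma cluster is known for the self-avoidance of starburst amacrine dendrites and for the survival of interneurons and ganglion cells. An alpha or gamma transcript joins its own large variable exon, which encodes the extracellular cadherin repeats, to constant exons that every member of that cluster shares. A beta gene is a single coding exon with no constant part. Promoter choice depends on CTCF and cohesin, which bring distal enhancers to the promoters, and on DNA methylation.

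Poly(A) RNA of retina was sequenced from 12 libraries, 3 in each of 4 groups: P28 wild type, P28 knockout, 12-month wild type and 12-month knockout. Wild type is Pilrb1/2+/+ and knockout Pilrb1/2 -/-, a germline deletion made by CRISPR in C57BL/6J zygotes and then crossed to C57BL/6J, with no treatment named. The sample labels name Pilrb1/2, genes of paired immunoglobulin-like receptors, while the series text counts Pilra among the deleted genes as well. Nothing in the labels ties a library to an animal, so a p-value here measures the spread between libraries of a group, and that spread may be technical.

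Effective depth, read back from the low values, was 15.6 to 27.1 M reads a library. It separated the 12-month groups, at 22.7 to 27.1 M in wild type and 15.6 to 19.2 M in knockout. The mitochondrial share of signal separated them as well, at 7.36 to 8.29% and 9.94 to 12.6%. At P28 that share was lower in knockout, at 4.56 to 7.08% against 7.36 to 9.31% in wild type, again without overlap. It therefore also separated the ages in knockout. The part of depth or of this share in any of the differences was not tested. In the 12 libraries 3 reads corresponded to 0.111 to 0.192 CPM, a floor that covers counting error only. Pilrb1 and Pilrb2 were listed at 0 in 11 libraries each and at 0.052 and 0.0436 CPM in the other. Pilra was above 0 in all 12. At P28 all knockout libraries, at 0.441 to 1.16 CPM, exceeded the wild-type range of 0.133 to 0.171 CPM. At 12 months the genotypes overlapped, with knockout at 0.0556 to 0.309 CPM against a wild-type range of 0.159 to 0.268 CPM. A loss of Pilra RNA in knockout was thus not seen, and the reason was not tested. None of these genes checked the labels. Xist and Y-linked genes gave 3 male libraries in P28 wild type, 1 male and 2 female in P28 knockout, 1 male and 2 female in 12-month wild type, and 3 male in 12-month knockout. Summed markers of neurons, glia and vessels were above 0 in every library, with no marker at 0 throughout. P28 knockout library 2 stood apart, with 9 lens markers summing to 4989 CPM against 10.3 to 1795 CPM in the other 11, and each count of members called is also given without it.

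The shared exons bear on every alpha and gamma value. The constant exons measured 2860 bases in the alpha members and up to 2119 bases in the gamma members. The most abundant transcript had a median length of 5340 bases in the alpha and 4674 bases in the gamma cluster. In some gamma members, such as Pcdhga1 and Pcdhgb5, that transcript holds no constant exons, and the GC content and length used below are those of that form. Over all transcripts of a gene, the share of its 31-base words found in no other gene was also taken. This share had a median of 36.5% in the alpha cluster, 53.8% in the gamma cluster and 88.2% in the beta cluster. It was lowest for Pcdha4, at 9.32%. Reads from shared exons were divided among members by the authors' quantification, so single alpha and gamma values are uncertain in a way that the beta values and the cluster sums are less exposed to. The spread between libraries of a group followed the same order, with a median SD of log2 values of 0.33 over alpha members, 0.20 over gamma members and 0.13 over beta members. It reached 0.72 for Pcdhgc4 and was lowest, at 0.06, for Pcdhb12.

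Levels are compared between genes per length, as the RPKM summed over a gene's transcripts. Retina held RNA of most of the array. Member means ran from 0.188 to 7.43 RPKM with a median of 2.25 RPKM. Of the 58 members 57 reached 1 CPM in at least 3 libraries, the filter for testing. The exception was Pcdhb1, the first gene of the beta array, whose mean was 0.188 RPKM and 0.485 CPM. Pcdhb20 had the highest mean, 7.43 RPKM, and ranged from 5.33 to 9.75 RPKM over the 12 libraries. Pcdhb9 followed at 5.69 RPKM and Pcdhb17 at 5.23 RPKM. In the gamma cluster Pcdhga4 averaged 5.56 RPKM, from 3.87 to 7.85 RPKM. The ranges of these 4 genes overlapped, so their order is not resolved.

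The C-type members were among both the higher and the lower genes. Pcdhgc3, known for promoting dendrite branching, averaged 5.27 RPKM, and Pcdhgc4, known as the gamma isoform that neuronal survival depends on, averaged 5.36 RPKM. Pcdhac2, known for the spacing of serotonergic axons, averaged 3.99 RPKM and ranged from 2.90 to 4.81 RPKM. Pcdhac1 averaged 1.63 RPKM, and its highest library, at 2.48 RPKM, was below the lowest of Pcdhac2. Pcdhgc5 had the lowest mean of the gamma cluster, 1.15 RPKM. Among the other alpha genes Pcdha4 averaged 5.21 RPKM, from 2.65 to 12.9 RPKM, and Pcdha12 averaged 2.12 RPKM, while Pcdha8 was lowest at 0.291 RPKM.

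**Figure D1:**
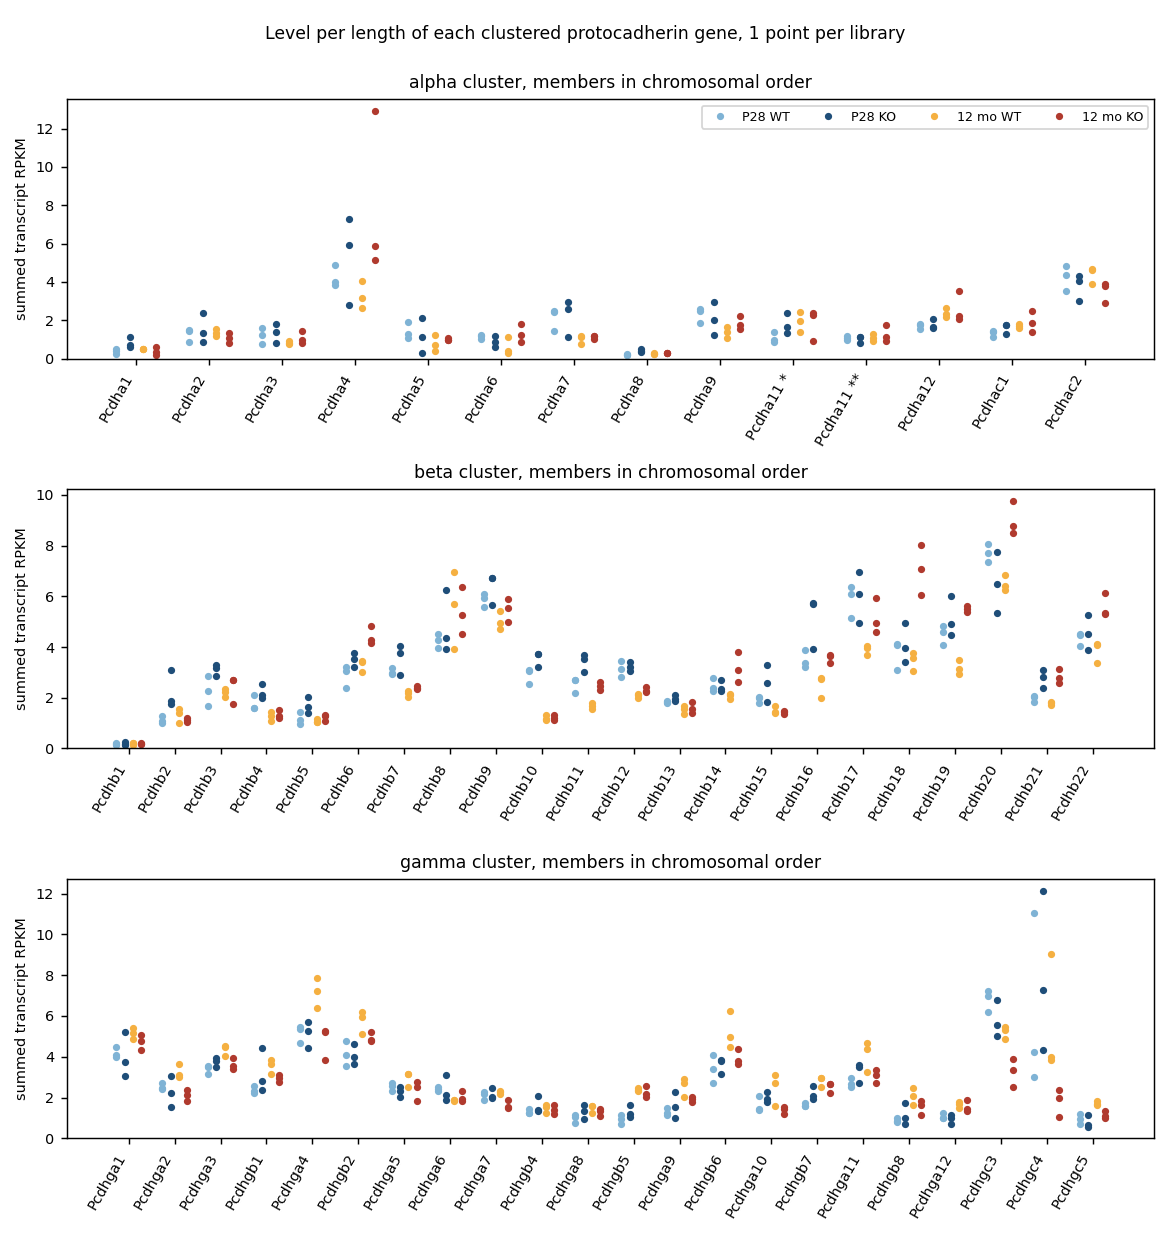
Level per length of every member in summed transcript RPKM (vertical axis, linear), with 1 point per library, colours for the 4 groups and members in chromosomal order. One star marks Pcdha11 ENSMUSG00000007440 and 2 stars ENSMUSG00000102206. Pcdhb20 has the highest mean, Pcdhb1 is near 0, 1 library stands far above the rest for Pcdha4 (12.9 RPKM), and 4 libraries stand above the other 8 for Pcdhgc4 (7.30 to 12.1 RPKM).

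Knockout and wild type were first compared at P28. No member passed an adjusted p of 0.05 in limma, against 1.49% of all 16486 genes tested, and 11 of the 57 members had an unadjusted p under 0.05, or 19.3%, against 21.4% of all genes. The estimates leaned to higher values in knockout: 44 members were positive, 20 of 21 in the beta cluster, and the median log2 fold change was 0.19 over members and -0.01 over all genes. Fold changes here and below are on the log2(CPM + 1) scale, which understates changes of low genes. For 13 members every knockout library was above every wild-type library and for 0 every one was below, against 10.5% and 13.2% of all genes, and 9 of the 13 were beta genes. With a smooth trend of GC content and transcript length removed from each library 0 members passed, against 1.68% of all genes.

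The beta sum showed the same separation. It was 271, 293 and 302 CPM in P28 wild type and 309, 332 and 370 CPM in P28 knockout, so the groups did not overlap, although the gap between them was smaller than the range within either group. The separation does not depend on P28 knockout library 2, which lay between the other 2 knockout libraries. The part of the array from Pcdhb1 to Pcdhb13 was wider apart, at 99.4 to 109 CPM in wild-type retina and 121 to 136 CPM in knockout. The alpha sum (107 to 135 CPM against 96.3 to 164 CPM) and the gamma sum (224 to 261 CPM against 252 to 302 CPM) overlapped. P28 knockout library 2 had the lowest alpha share of all member signal in the series, 13.2%, against 16.1 to 21.4% in the other 11.

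The lowest adjusted p at P28 belonged to Pcdhb2, a low beta gene. Its values were 2.76, 2.64 and 3.28 CPM in wild-type retina and 5.12, 9.24 and 4.59 CPM in knockout, with no overlap and library 2 the highest. Its log2 fold change was 0.86 ± 0.21 (SE) with an adjusted p of 0.0577, which did not pass. Without P28 knockout library 2, Pcdhb2 and Pcdha8 passed, and without P28 knockout library 1 it was Pcdhb16 and Pcdhb21 that did. Each pair is 3.51% of members, where 8.52% and 1.99% of all genes passed in those fits. Pcdha8 was at 1.11, 1.3 and 1.03 CPM in wild-type retina and 2.57, 1.82 and 2.00 CPM in knockout (adjusted p = 0.0671). Pcdhb21 was at 8.63, 9.61 and 9.19 CPM in wild-type retina and 11.1, 13.9 and 14.4 CPM in knockout (adjusted p = 0.0772). Genotype and sex are nearly confounded at P28, where all 3 wild-type libraries were male and 2 of 3 knockout libraries female. With a sex term the adjusted p of Pcdhb2 was 0.345, in a fit where 0.00607% of all genes passed.

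At 12 months the clusters moved apart. Of 57 members 18 passed, 12 higher and 6 lower in knockout, or 31.6%, where 39.6% of all genes tested passed, 16.1% higher and 23.5% lower. The share of members called was thus below that of all genes, but the direction differed by cluster. All 10 beta genes that passed were higher, the 6 gamma genes that passed were lower, and 2 alpha genes were higher. The median log2 fold change was 0.10 over 21 beta members, 0.09 over 14 alpha members and -0.37 over 22 gamma members, where the median over all genes was -0.03. An unadjusted p under 0.05 was reached by 23 members, or 40.4%, against 49.7% of all genes. The clusters were not tested against each other.

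**Figure D2:**
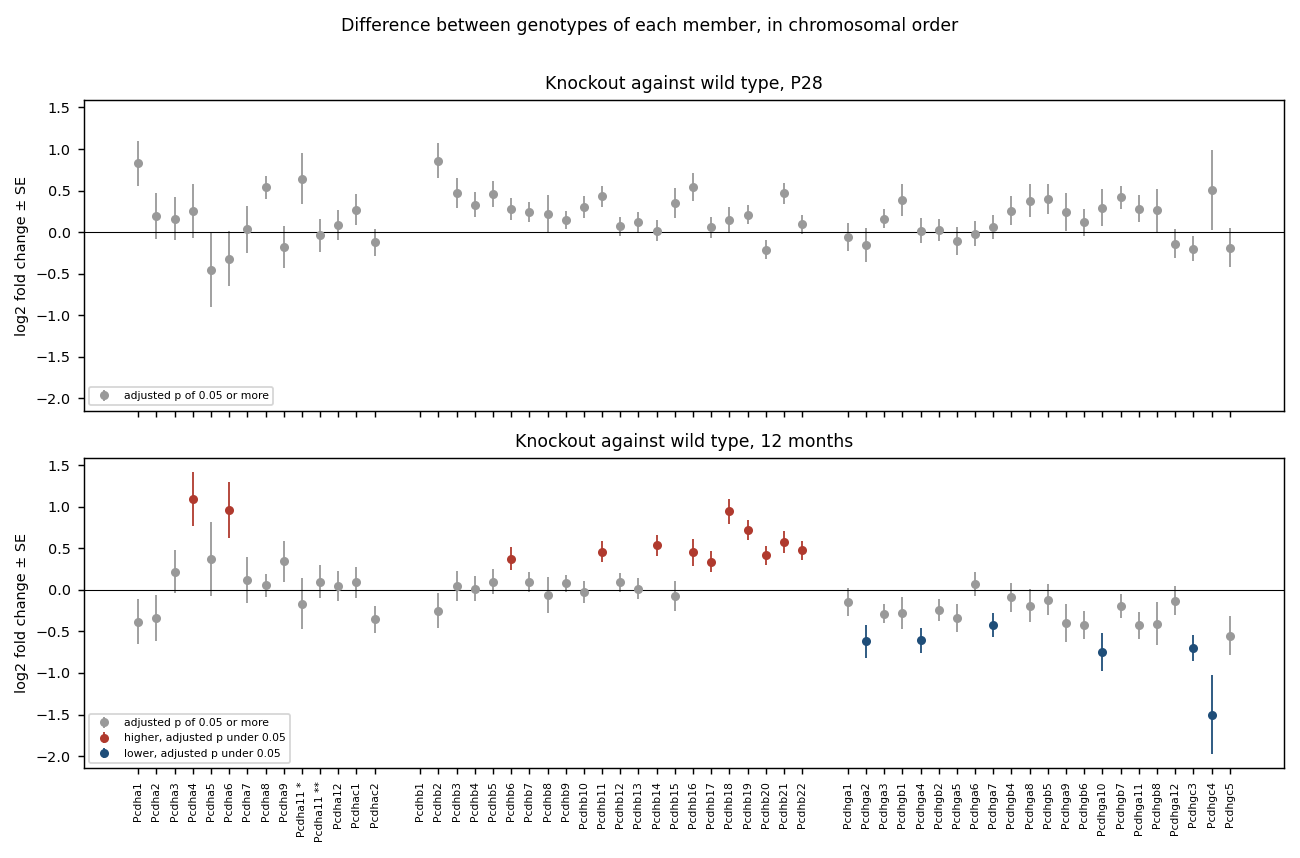
Log2 fold change of knockout over wild type (vertical axis, on log2(CPM + 1)) with its SE from limma for each member in chromosomal order, at P28 in the upper panel and at 12 months in the lower, with members past an adjusted p of 0.05 coloured; Pcdhb1 was not tested and has no point, and stars mark the 2 Pcdha11 rows as in the plot of levels. No member is coloured at P28, while at 12 months 10 beta genes are higher and 6 gamma genes lower.

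The beta genes that rose lay mostly at the far end of the array. For 12 of 21 beta members every knockout library was above every wild-type library, or 57.1%, where 27% of all genes separated that way. Of the 9 genes from Pcdhb14 to Pcdhb22, 8 rose (Pcdhb14, Pcdhb16, Pcdhb17, Pcdhb18, Pcdhb19, Pcdhb20, Pcdhb21 and Pcdhb22), and of the 12 tested from Pcdhb2 to Pcdhb13 only Pcdhb6 and Pcdhb11 did. This division of the array was chosen after the values were seen and is given as a description. Summed from Pcdhb14 to Pcdhb22, signal was 151, 149 and 157 CPM in wild-type retina and 231, 238 and 213 CPM in knockout, with no overlap. Over Pcdhb1 to Pcdhb13 it was 92.7, 95 and 82.0 CPM against 102, 97.3 and 93.8 CPM, and the groups overlapped. For comparison, the P28 wild-type libraries were at 170 to 193 CPM in the far part, above 12-month wild type and below 12-month knockout.

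Pcdhb18 had the smallest adjusted p. Its values were 18.3, 15.5 and 19.3 CPM in wild-type retina and 36.0, 38.5 and 30.3 CPM in knockout, so the lowest knockout library was well above the highest wild-type library. Its log2 fold change was 0.94 ± 0.15 (adjusted p = 0.00256), and it passed without each of the 12 libraries in turn. Pcdhb19, its neighbour, was at 21.4, 22.5 and 25.4 CPM in wild-type retina and at 39.6, 38.1 and 38.3 CPM in knockout, a log2 fold change of 0.72 ± 0.12 (adjusted p = 0.00263). Both groups of Pcdhb19 were tight and far apart. Pcdhb21 was at 8.78, 8.45 and 8.23 CPM in wild-type retina and at 14.9, 12.4 and 12.2 CPM in knockout, a log2 fold change of 0.57 ± 0.13 (adjusted p = 0.00576).

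Pcdhb14 and Pcdhb22, the outer genes of this stretch, rose as well. Pcdhb14 was at 19, 17.1 and 18.7 CPM in wild-type retina and 27.4, 31.4 and 22.7 CPM in knockout (log2 fold change 0.54 ± 0.13, adjusted p = 0.00677). Pcdhb22 was at 22.6, 27.1 and 27.5 CPM in wild-type retina and 35.1, 38.1 and 34.9 CPM in knockout (log2 fold change 0.47 ± 0.11, adjusted p = 0.00727). Pcdhb20, the gene with the highest level per length, was at 22.6, 23.0 and 24.7 CPM in wild-type retina and 31.5, 33.0 and 30.1 CPM in knockout (adjusted p = 0.0126). In all 3 genes the groups did not overlap. Pcdhb15, the 1 gene of the stretch that did not pass, was named after its values were seen and was at 4.74, 4.08 and 3.94 CPM against 4.21, 3.66 and 4.05 CPM, and it has the highest GC content of the 9, 48.3%.

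In the gamma cluster 21 of 22 estimates were below 0, and for 13 members every knockout library was below every wild-type library, or 59.1%, where 32.2% of all genes separated that way. The 6 that fell were Pcdhga2, Pcdhga4, Pcdhga7, Pcdhga10, Pcdhgc3 and Pcdhgc4. The gamma sum was 352, 327 and 313 CPM in wild-type retina and 256, 222 and 248 CPM in knockout, with no overlap. The sum over all 3 clusters, in contrast, was 671 to 716 CPM in wild-type retina and 678 to 725 CPM in knockout and overlapped. The gamma share of member signal was therefore 46.7 to 49.2% in wild type and 31.3 to 36.6% in knockout, and the beta share 34.1 to 35.9% and 45.2 to 47.3%.

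Pcdhgc3 was at 24.8, 21.7 and 23.9 CPM in wild-type retina and at 15.0, 10.7 and 17.2 CPM in knockout, with no overlap. Its log2 fold change was -0.70 ± 0.15 (adjusted p = 0.00536), and it passed without each library in turn. Pcdhga4 was at 37.8, 34.3 and 30.7 CPM in wild-type retina and at 25.2, 17.3 and 24.4 CPM in knockout (log2 fold change -0.61 ± 0.15, adjusted p = 0.00889). Its highest knockout library was below its lowest wild-type library. Pcdhga2 was at 17.5, 14.6 and 14.3 CPM against 11.2, 9.53 and 8.49 CPM (log2 fold change -0.62 ± 0.20, adjusted p = 0.0282). Pcdhga10 was at 15.1, 12.8 and 7.66 CPM against 6.80, 5.30 and 7.25 CPM (log2 fold change -0.75 ± 0.23, adjusted p = 0.0206), with wild-type library 3 just above the knockout range. Pcdhga7 fell by 0.43 ± 0.14 on the log2 scale (adjusted p = 0.0323).

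Pcdhgc4 had the largest estimate by size at 12 months, and the largest SE among the members called. Its values were 14, 14.4 and 33.7 CPM in wild-type retina and 7.26, 3.52 and 8.50 CPM in knockout, a log2 fold change of -1.5 ± 0.48 (adjusted p = 0.0262, and 0.114 without wild-type library 3). Over the 12 libraries its transcripts fell into 2 patterns. Pcdhgc4-203, a 2272-base transcript of which 2119 bases are the shared constant exons, was at 7.61, 8.63, 4.43 and 6.04 RPKM in P28 wild-type library 3, P28 knockout libraries 1 and 3 and 12-month wild-type library 3, and at no more than 0.12 RPKM in the other 8. In those 4 libraries it made up 60.6 to 71.1% of Pcdhgc4. The 4 libraries come from 3 of the 4 groups, and nearly all of the transcript's sequence is that of every gamma member.

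Without that transcript Pcdhgc4 was still lower in 12-month knockout. The remaining forms were at 3.83, 3.98 and 3.0 RPKM in 12-month wild type and at 2.00, 1.02 and 2.29 RPKM in 12-month knockout, with no overlap. At P28 they were at 2.96, 4.11 and 3.43 RPKM in wild type and at 3.51, 4.32 and 2.87 RPKM in knockout, with overlap. The 3 gamma C genes summed to 45.4 to 66.5 CPM in 12-month wild type and 19.4 to 31.8 CPM in 12-month knockout. Pcdhgc5, reported to bind a GABA-A receptor subunit, was at 10.3, 9.31 and 8.96 CPM against 7.46, 5.17 and 6.05 CPM and did not pass. Leaving out the whole of Pcdhgc4 changed the log2 ratio of the gamma sums from -0.45 to -0.40.

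Transcripts of the gamma cluster are given by form, with no test between the forms. Those that include constant exons, which encode the shared cytoplasmic part, summed to 54.0 to 58.2 RPKM in 12-month wild type and 34.0 to 40.4 RPKM in 12-month knockout. Of 24 such transcripts 15 were lower in every knockout library than in any wild-type library, and 0 were higher. Over all 64317 transcripts with a mean of at least 0.1 RPKM, the same filter, 20.2% separated as lower and 17.9% as higher. Transcripts without constant exons, called variable-only here, summed to 14.1 to 20.8 RPKM in wild type and 16.8 to 19.6 RPKM in knockout, with overlap. Of 10 such transcripts 0 were lower without overlap and 1 higher. Several of them are annotated as retained introns, such as Pcdhgc4-202 and Pcdhgb5-202, and some, such as Pcdhgb1-202, have 2 exons. The variable-only share was 19.7 to 27.5% in wild type and 29.4 to 36.5% in knockout. P28 knockout library 2 had a share of 35.3% where the other P28 libraries were at 16.4 to 22.9%. These shares rest on how the quantification divided the reads of each gene among its forms.

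**Figure D3:**
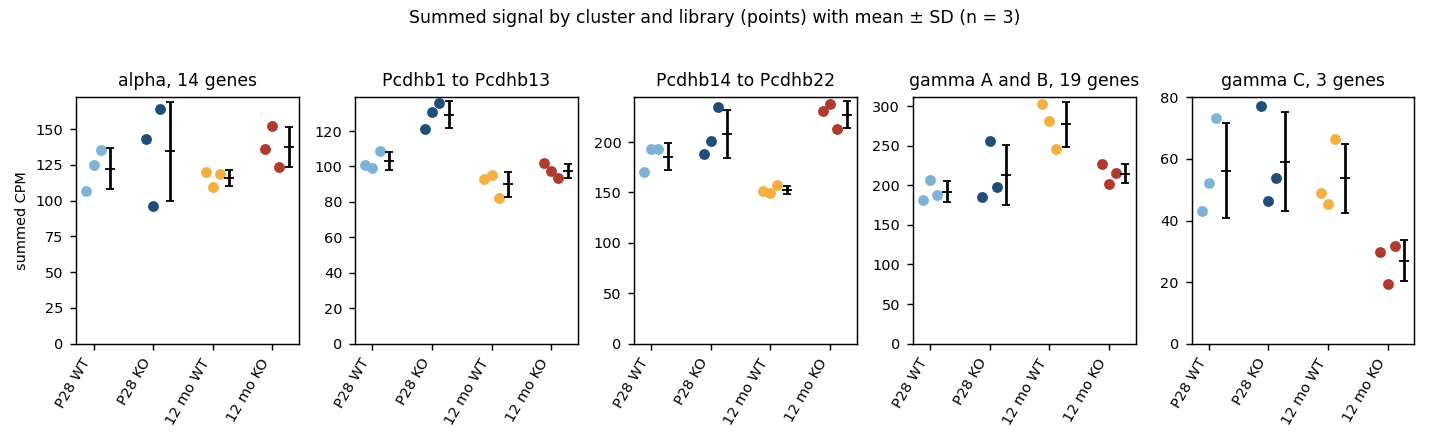
Signal summed over the alpha genes, the 2 stretches of the beta array, the gamma A and B genes and the gamma C genes, in CPM (vertical axes, linear and starting at 0), with 1 point per library and the mean with its SD beside it (n = 3). The stretch Pcdhb14 to Pcdhb22 is higher and both gamma panels are lower in 12-month knockout than in 12-month wild type without overlap.

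In the alpha cluster Pcdha4 and Pcdha6 rose at 12 months, and each depended on single libraries. Pcdha4 was at 14.1, 11.7 and 18.1 CPM in wild-type retina and at 22.9, 54.1 and 25.8 CPM in knockout, a log2 fold change of 1.09 ± 0.33 (adjusted p = 0.0202). Knockout library 2 was above every other library of the series, and without it the adjusted p was 0.0926. Pcdha6 was at 2.02, 1.67 and 5.98 CPM against 6.61, 8.92 and 4.46 CPM, which overlapped (adjusted p = 0.0362, and 0.143 without knockout library 2). The alpha sum was 109 to 120 CPM in wild-type retina and 124 to 152 CPM in knockout, but without Pcdha4 it was 97.6 to 106 CPM against 97.8 to 113 CPM, and the log2 ratio went from 0.25 to 0.03. Pcdhac1 and Pcdhac2 did not pass: Pcdhac2 was at 28.2, 23.1 and 27.8 CPM in wild-type retina and 23.3, 16.2 and 22.1 CPM in knockout.

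GC content moved with the 12-month differences, in members as in all genes. Across the 57 members Spearman's rho between the log2 fold change and the GC content of the most abundant transcript was -0.85, and Pearson's r was -0.81. Across the 16274 tested genes with a sequence rho was -0.78, and members are not independent, since they share libraries and exons. Among members that rose, Pcdhb14 is at 39.1% GC, Pcdhb19 at 41.2%, Pcdhb18 at 41.8%, Pcdhb6 at 45.6%, Pcdha4 at 45.7% and Pcdha6 at 47.3%, against a median of 47.5% for Pcdhb1 to Pcdhb13 and 52.6% for the gamma cluster. Over all genes the median log2 fold change was 0.28 for transcripts of 40 to 45% GC and -0.32 for those of 50 to 55% GC. At P28 the members' rho was -0.12 and that of all genes -0.35.

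When a smooth trend of GC content and length was removed from each library, 1 member remained called at 12 months. That was Pcdhb18, with a log2 fold change of 0.57 (adjusted p = 0.0243), and 6.64% of all genes passed in that fit. Pcdhb19 was at 0.31 (adjusted p = 0.0754), Pcdhgc3 at -0.18 (adjusted p = 0.367) and Pcdhgc4 at -1.01 (adjusted p = 0.197). The median over gamma members went from -0.37 to -0.13, and that over Pcdhb14 to Pcdhb22 from 0.47 to 0.22. The cause of the GC relation was not tested.

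**Figure D4:**
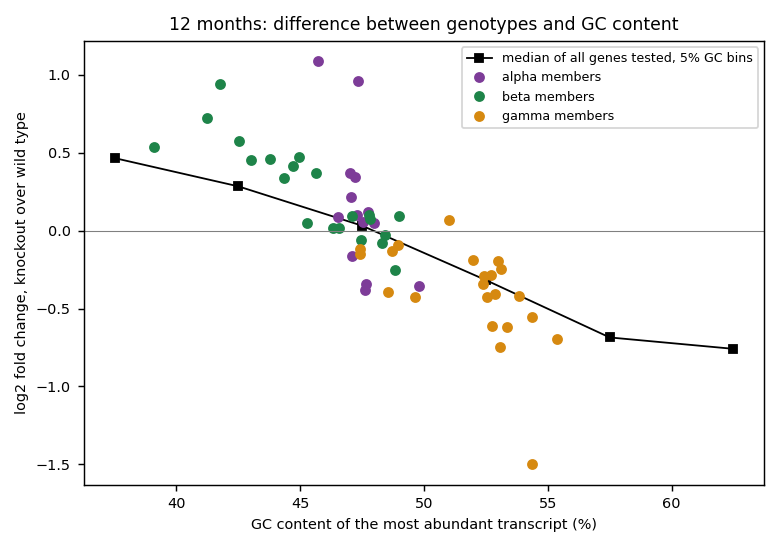
Log2 fold change of knockout over wild type at 12 months (vertical axis, on log2(CPM + 1)) against the GC content in percent of the most abundant transcript of each member (horizontal axis), with the median over all tested genes in 5% GC bins as black squares. The members lie along the line of all genes, with Pcdhb18, Pcdhb19, Pcdha4 and Pcdha6 above it and Pcdhgc4 below it.

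Sex and single libraries also bore on the 12-month count. The wild-type group held 2 female libraries and the knockout group none, and with a sex term 9 of the 18 members passed, where 30.1% of all genes did, 7 beta genes higher and Pcdhgc3 and Pcdhgc4 lower. Without 12-month wild-type library 1, 8 members passed, without wild-type library 2, 10, and without knockout library 2, 9. The share of all genes called fell as well, to 23.9%, 32.1% and 21.5% in these fits. Without P28 knockout library 2, which enters here only through the estimate of spread, 21 members passed, 12 higher and 9 lower, where 47.1% of all genes did. Pcdhb14, Pcdhb18, Pcdhb19, Pcdhb21, Pcdhb22, Pcdhga4 and Pcdhgc3 passed in each of these 3 fits. Under quantile normalization 14 members were higher and 2 lower (Pcdhga4 and Pcdhgc3), where the main split was 12 and 6. Of all genes 18% were higher and 18.3% lower in that fit, against 16.1% and 23.5% in the main fit.

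Markers of other retinal cells differed between the same groups. At 12 months 10 rod markers summed to 36780 to 44010 CPM in wild-type retina and 22340 to 29410 CPM in knockout. The 11 amacrine markers summed to 1583 to 1681 CPM and 1695 to 1806 CPM, the 7 starburst markers to 148 to 167 CPM and 205 to 253 CPM, and the 10 ganglion cell markers to 771 to 841 CPM and 849 to 922 CPM. Each of these 4 sums separated the genotypes without overlap. Of the single markers 6 of 10 rod genes were lower and 0 higher, and 2 of 7 starburst genes were higher and 2 lower. Of 10 ganglion cell genes 2 were higher and 3 lower, and of 10 amacrine genes tested 2 were higher and 2 lower. Of all genes 23.5% were lower and 16.1% higher. The horizontal cell sum, of 5 markers, was also higher without overlap, at 117 to 124 CPM and 156 to 186 CPM. So was the bipolar sum, of 10 markers, at 1589 to 1638 CPM and 1717 to 1778 CPM. Singly, 3 of the 5 horizontal cell genes were higher and 0 lower, and 0 of the 10 bipolar genes were higher and 1 lower. Sums of cone, Mueller glia, astrocyte, microglia and erythrocyte markers were lower without overlap, with log2 ratios of -0.54, -0.12, -0.61, -0.39 and -1.81. At P28 the rod sum was 32540 to 43610 CPM in wild type and 22840 to 28750 CPM in knockout, without overlap. The microglia sum was higher (log2 ratio 0.41) and the erythrocyte sum lower (-1.30) in P28 knockout, both without overlap. The other sums overlapped at P28, the starburst sum at 178 to 219 CPM and 161 to 320 CPM. Singly, 3 of 10 cone genes were lower and 0 higher in P28 knockout, where 0.491% of all genes were lower. None of the 10 rod genes passed at P28. In bulk tissue a change in the number of cells of a type and in RNA per cell cannot be told apart, and the part of cell make-up in the protocadherin values was not tested.

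Whether the genotype difference itself changed with age was tested as an interaction. No member passed, against 0.176% of all genes (0.0789% with a higher and 0.0971% with a lower difference at 12 months), and 19 of 57 had an unadjusted p under 0.05, or 33.3%, against 26.7% of all genes. The largest of these estimates was that of Pcdhgc4, -2.00 (adjusted p = 0.104). Pcdhb20 had the lowest adjusted p, 0.0706, with an estimate of 0.62, followed by Pcdhb18 at 0.79 (adjusted p = 0.076) and Pcdhb2 at -1.11 (adjusted p = 0.0761). In the gamma cluster 20 of 22 estimates were below 0. Without P28 knockout library 3, 8 members passed: Pcdhb18, Pcdhb19 and Pcdhb20 with a higher and Pcdha1, Pcdhb2, Pcdhga4, Pcdhga10 and Pcdhgb1 with a lower difference at 12 months. They were 14% of members where 15.2% of all genes passed in that fit. Without 12-month knockout library 3, Pcdhb14, Pcdhb18 and Pcdha1 passed, or 5.26% of members where 4.86% of all genes did, and without P28 knockout library 2 no member did where 1.43% of all genes passed. With the GC and length trend removed 0 members passed, against 0.0123% of all genes.

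With age the wild-type retina changed its balance of gamma and beta transcripts. Of 57 members 11 passed, 6 higher and 5 lower at 12 months, or 19.3%, where 5.4% of all genes passed, 3.65% higher and 1.75% lower. All 6 that rose were gamma genes (Pcdhga9, Pcdhgb2, Pcdhgb5, Pcdhgb6, Pcdhgb7 and Pcdhgb8) and all 5 that fell were beta genes (Pcdhb10, Pcdhb11, Pcdhb12, Pcdhb17 and Pcdhb19). Of the 7 gamma B genes 5 rose, and of the 12 gamma A genes 1 did. In 15 gamma members every 12-month library was above every P28 library, or 68.2%, where 18.9% of all genes separated that way, and in 13 beta members, or 61.9%, every one was below, where 16% of all genes did.

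Summed, the gamma signal was 224, 260 and 261 CPM at P28 and 352, 327 and 313 CPM at 12 months in wild type, with no overlap. The beta sum was 271, 293 and 302 CPM at P28 and 244, 244 and 239 CPM at 12 months, again with no overlap. The gamma share of member signal went from 37.2 to 38.3% at P28 to 46.7 to 49.2% at 12 months. The beta share went from 43.2 to 45.1% to 34.1 to 35.9%. The gamma B genes moved most among the 3 gamma types, with a log2 ratio of sums of 0.73 against 0.43 for gamma A and -0.07 for gamma C. Ganglion cell markers summed to 978 to 1107 CPM at P28 and 771 to 841 CPM at 12 months and starburst markers to 178 to 219 CPM and 148 to 167 CPM in the same libraries, and the horizontal cell sum went from 176 to 198 CPM to 117 to 124 CPM. None of these 3 sums overlapped between the ages, nor did microglia (log2 ratio 0.41) or vessel markers (-0.22), and the part of cell make-up in the ageing values was not tested.

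Pcdhgb5 had the largest rise. It was at 3.28, 5.26 and 4.21 CPM at P28 and at 10.9, 11.5 and 11 CPM at 12 months, so every 12-month library was above every P28 library. Its log2 fold change was 1.22 ± 0.18 (adjusted p = 0.00143), and it passed without each library in turn. The rise was in Pcdhgb5-202, a transcript without constant exons that is annotated as a retained intron. It was at 0.540, 0.553 and 0.668 RPKM at P28 and 1.93, 1.96 and 1.83 RPKM at 12 months, while Pcdhgb5-201, with constant exons, overlapped. Pcdhgb7 was at 7.36, 7.34 and 7.75 CPM at P28 and 14.2, 14.1 and 12.2 CPM at 12 months (log2 fold change 0.77 ± 0.14, adjusted p = 0.00662). Pcdhgb8, a polymorphic pseudogene in the deposited annotation, was at 3.67, 4.50 and 3.85 CPM and then 9.70, 11.5 and 7.55 CPM (log2 fold change 1.07 ± 0.26, adjusted p = 0.0326).

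Pcdhga9 and Pcdhgb6 passed with less margin. Pcdhga9 was at 4.34, 4.05 and 5.19 CPM at P28 and 10.5, 9.69 and 7.42 CPM at 12 months (adjusted p = 0.0423). Pcdhgb6 was at 12.6, 19.1 and 15.4 CPM at P28 and 29.8, 23.4 and 21.3 CPM at 12 months (adjusted p = 0.0468). Both separated the ages without overlap.

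Pcdhb10 had the largest fall. It was at 8.74, 7.24 and 8.41 CPM at P28 and at 3.29, 3.78 and 3.36 CPM at 12 months in wild type, a log2 fold change of -1.03 ± 0.13 (adjusted p = 0.000543). Pcdhb17 was at 23.8, 28.2 and 28.6 CPM at P28 and 19.2, 17.3 and 18.8 CPM at 12 months (log2 fold change -0.52 ± 0.12, adjusted p = 0.0303). Pcdhb12 was at 8.46, 10.4 and 9.18 CPM and then 6.69, 6.05 and 6.51 CPM (log2 fold change -0.48 ± 0.12, adjusted p = 0.0304). None of these 3 genes overlapped between the ages. Pcdhb11 fell by 0.49 ± 0.13 and Pcdhb19 by 0.43 ± 0.12 on the log2 scale (adjusted p = 0.042 and 0.0492).

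The wild-type ageing count was sensitive to which libraries entered. All 3 P28 wild-type libraries were male and 2 of the 3 at 12 months female, and with a sex term 3 members and 2.19% of all genes passed, the members being Pcdhgb5 higher, and Pcdhb10 and Pcdhb16 lower. Without 12-month wild-type library 1, 2 or 3 3, 3 and 5 members passed, where 2.79%, 2.54% and 2.77% of all genes did. Leaving out P28 wild-type library 1, 2 or 3 gave 5, 6 and 3 where 2.73 to 3.27% of all genes passed, and leaving out 12-month knockout library 1 or 3 gave 6 each where 4.53% and 4.82% did. Without P28 knockout library 2, which enters this comparison only through the estimate of spread, 19 members and 10% of all genes passed, and with only the 2 groups compared in the fit 24 members and 13.9% of all genes did. Pcdhb10, Pcdhgb5 and Pcdhgb7 passed in all 12 fits that leave out 1 library. With the GC and length trend removed 13 members passed, 9 of them among the 11, where 7.9% of all genes did. Under quantile normalization 3 members rose and 5 fell, where 3.49% of all genes rose and 2.3% fell.

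**Figure D5:**
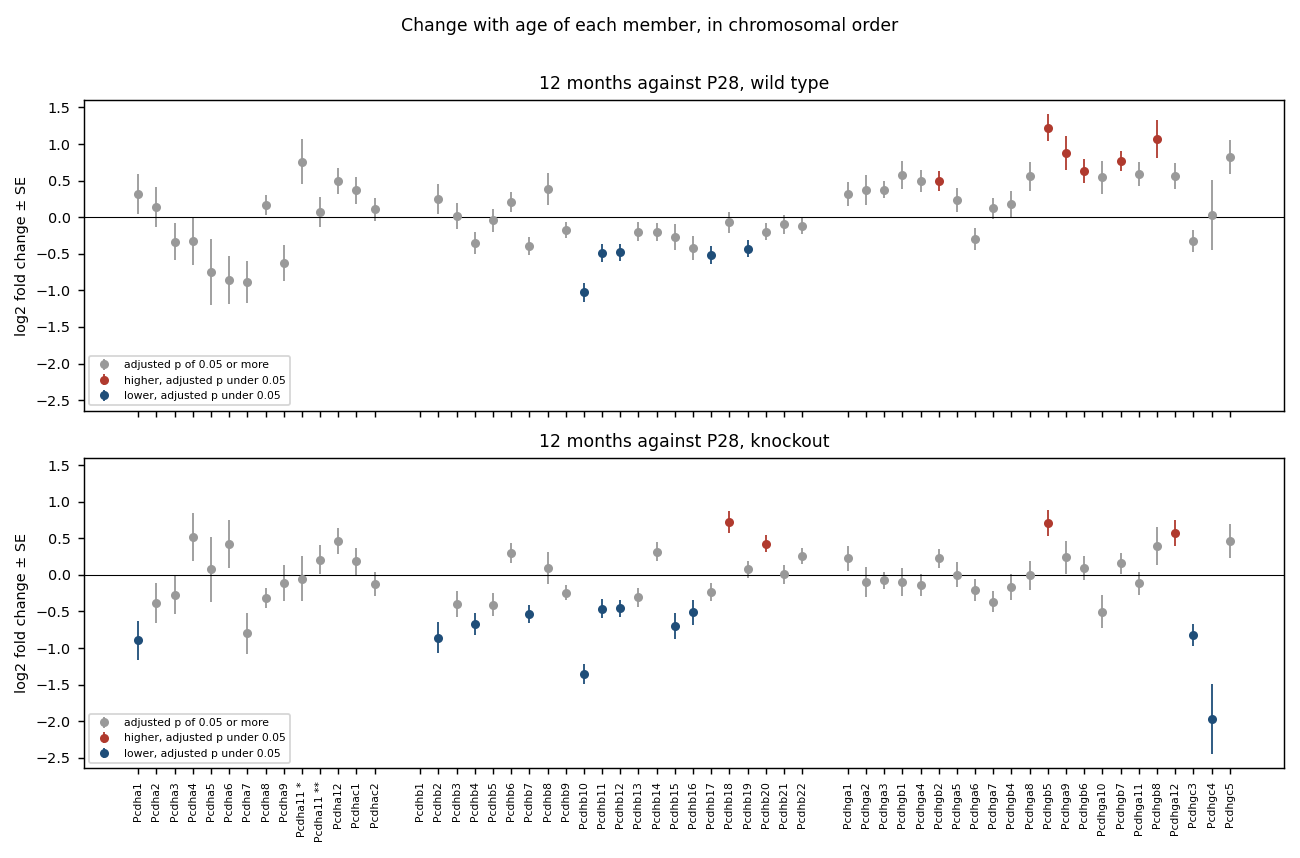
Log2 fold change of 12 months over P28 (vertical axis, on log2(CPM + 1)) with its SE from limma for each member in chromosomal order, in wild type in the upper panel and in knockout in the lower, with members past an adjusted p of 0.05 coloured; Pcdhb1 was not tested and has no point, and stars mark the 2 Pcdha11 rows as in the plot of levels. In wild type all 6 higher members are gamma genes and all 5 lower members beta genes, and in knockout 8 of the 11 lower members are beta genes.

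In knockout retina 15 members passed between the ages, 4 higher and 11 lower at 12 months, or 26.3%, where 27.2% of all genes passed, 13.3% higher and 13.9% lower. An unadjusted p under 0.05 was reached by 27 members, or 47.4%, against 41.3% of all genes. Those that rose were Pcdhb18, Pcdhb20, Pcdhgb5 and Pcdhga12, and those that fell were Pcdha1, 8 beta genes (Pcdhb2, Pcdhb4, Pcdhb7, Pcdhb10, Pcdhb11, Pcdhb12, Pcdhb15 and Pcdhb16), Pcdhgc3 and Pcdhgc4. The beta array was divided: Pcdhb1 to Pcdhb13 summed to 121 to 136 CPM at P28 and 93.8 to 102 CPM at 12 months with no overlap, while Pcdhb14 to Pcdhb22 summed to 188 to 235 CPM and 213 to 238 CPM and overlapped. The gamma sum was 252 to 302 CPM at P28 and 222 to 256 CPM at 12 months, with overlap. Between the same libraries astrocyte, microglia and erythrocyte marker sums were lower at 12 months without overlap (log2 ratios -0.65, -0.38 and -1.19). The Mueller glia sum was higher (0.09), although the median log2 fold change of its 8 markers was -0.14. The sums of the 7 neuron types overlapped. Among single markers 5 of 10 ganglion cell, 5 of 10 cone and 4 of 7 vessel genes were lower and 0 higher, against 13.9% of all genes lower. So were 3 of 10 amacrine, 2 of 10 bipolar and 1 of 7 starburst genes, with 0 higher. Of 10 rod genes 1 was higher and 0 lower, and of 8 Mueller glia genes 2 were higher and 0 lower. The part of cell make-up was not tested.

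Pcdhb10 was at 9.11, 11.1 and 10.5 CPM at P28 and at 3.83, 3.03 and 3.35 CPM at 12 months in knockout, a log2 fold change of -1.35 ± 0.13 (adjusted p = 3.87e-05). Pcdhb18 was at 19.8, 18.1 and 24.6 CPM at P28 and 36.0, 38.5 and 30.3 CPM at 12 months (log2 fold change 0.72 ± 0.15, adjusted p = 0.00492). Pcdhgc3 was at 29.7, 23.3 and 24.3 CPM at P28 and 15.0, 10.7 and 17.2 CPM at 12 months (log2 fold change -0.82 ± 0.15, adjusted p = 0.00285). These 3 genes separated the ages and passed without each library in turn. Pcdhgc4 fell by 1.97 ± 0.48 on the log2 scale (adjusted p = 0.0106), and its P28 values include the 2 knockout libraries in which Pcdhgc4-203 was assigned reads. Pcdha1 was at 3.58, 6.07 and 3.21 CPM at P28 and 1.86, 0.841 and 3.03 CPM at 12 months (adjusted p = 0.0274, and 0.115 without 12-month knockout library 2).

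Most of the other beta genes that fell with age in knockout came from the near end of the array, among them Pcdhb2, Pcdhb4 and Pcdhb7. Pcdhb2 was at 5.12, 9.24 and 4.59 CPM at P28 and 2.73, 2.82 and 3.12 CPM at 12 months (log2 fold change -0.86 ± 0.21, adjusted p = 0.0107). Pcdhb4 was at 7.76, 7.82 and 9.35 CPM and then 5.68, 4.23 and 4.68 CPM (log2 fold change -0.67 ± 0.15, adjusted p = 0.00784). Pcdhb15 and Pcdhb7 fell by 0.70 ± 0.18 and 0.54 ± 0.12 on the log2 scale (adjusted p = 0.0139 and 0.00754). P28 knockout library 2 was the highest library of both Pcdhb2 and Pcdhb15.

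Pcdhga12 was at 3.28, 5.50 and 4.47 CPM at P28 and 6.70, 8.19 and 6.06 CPM at 12 months in knockout (log2 fold change 0.57 ± 0.17, adjusted p = 0.0294). Pcdhgb5 was at 4.65, 7.94 and 5.32 CPM and then 9.35, 11.3 and 9.91 CPM (log2 fold change 0.71 ± 0.18, adjusted p = 0.0141). Pcdhb20 was at 22.9, 19.9 and 27.3 CPM and then 31.5, 33.0 and 30.1 CPM (log2 fold change 0.43 ± 0.11, adjusted p = 0.0148). All 3 separated the ages. Without P28 knockout library 2, 16 members passed, 7 higher and 9 lower, of which 12 were among the 15, where 25.2% of all genes did. With a sex term 7 members and 18.6% of all genes passed, and with only the knockout groups in the fit 5 members and 9.52% of all genes. Under quantile normalization 14 members passed (6 higher and 8 lower), where 26% of all genes did, 14.2% higher and 11.8% lower. With the GC and length trend removed 20 passed, all 15 among them, where 21.8% of all genes passed.

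Pcdhb10, Pcdhb11 and Pcdhb12, which lie next to each other, fell and Pcdhgb5 rose with age in both genotypes. These 4 were 36.4% of the 11 members called in wild type and 26.7% of the 15 called in knockout. Over all genes the 599 called in the same direction in both genotypes were 67.2% of those called in wild type and 13.4% of those called in knockout. The ageing comparisons share no library with each other, although the fit shares 1 estimate of spread.

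The genes that act on the clusters or with their proteins were read from lists. Their counts are descriptions, to be set beside the share of all genes called in the same comparison. Of 22 genes for promoter and chromatin control, all tested, 12 were higher and 2 lower in knockout at 12 months, with a median log2 fold change of 0.32. Of all genes 16.1% were higher and 23.5% lower in that comparison. They included the cohesin partners Pds5b (0.68 ± 0.11, adjusted p = 0.00283), Pds5a (0.49 ± 0.09, adjusted p = 0.00351) and Stag2 (0.57 ± 0.12, adjusted p = 0.0042), and the cohesin release factor Wapl (0.45 ± 0.10, adjusted p = 0.00497). With the GC and length trend removed 0 of the 22 passed. Pds5a differed at both ages in opposite directions: it was 1.01 ± 0.09 lower on the log2 scale in knockout at P28 (adjusted p = 0.00177), the difference between ages was 1.5 ± 0.13 (adjusted p = 0.000958), and it fell with age in wild type by 1.34 ± 0.09 (adjusted p = 3.69e-06). The trend removal left Pds5a past the threshold in those 3 comparisons. The DNA methyltransferase gene Dnmt3a and the methylcytosine oxidase gene Tet1 fell with age in wild type, by 0.54 ± 0.12 and 0.74 ± 0.15 on the log2 scale (adjusted p = 0.0247 and 0.0132).

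Of 25 genes for protocadherin signalling and cleavage, 7 were higher and 8 lower in knockout at 12 months, or 60% called against 39.6% of all genes, and 0 passed with the trend removed. Adam10, the protease that sheds gamma protocadherins, was higher by 0.58 ± 0.13 on the log2 scale (adjusted p = 0.0051), while the gamma-secretase subunit gene Ncstn fell by 0.51 ± 0.10 (adjusted p = 0.00371). Of 22 genes for retinal self-avoidance and lamination, 10 fell and 0 rose with age in knockout, among them Cdh13 (-1.40 ± 0.17, adjusted p = 0.00022) and Plxna2 (-0.93 ± 0.10, adjusted p = 7.9e-05), and 2 fell in wild type. Of all genes 13.9% fell and 13.3% rose with age in knockout, and 1.75% fell in wild type. At P28 no gene of these 2 lists differed between the genotypes by the same test, and at 12 months 2 of the self-avoidance genes were higher and 6 lower in knockout, against 16.1% and 23.5% of all genes.

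Protocadherin genes outside the clusters were also read. Of 11 tested, 4 were higher and 1 lower in knockout at 12 months, or 45.5% called against 39.6% of all genes. Pcdh15, a tip-link protein of hair cells that is also found in photoreceptors, was higher by 0.60 ± 0.09 on the log2 scale (adjusted p = 0.00256), and 0.37 with the trend removed (adjusted p = 0.0343). Pcdh20 fell with age in wild type by 1.08 ± 0.13 (adjusted p = 0.000278) and in knockout by 0.72 ± 0.13 (adjusted p = 0.00232).

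Genes within 1 Mb of the outermost members numbered 93, of which 43 were tested. At 12 months 6 were higher and 9 lower in knockout, or 34.9% of them, near the 39.6% of all genes. Rell2 (-1.05 ± 0.17, adjusted p = 0.00256), Pura (0.75 ± 0.12, adjusted p = 0.00281) and Ndufa2 (-1.32 ± 0.22, adjusted p = 0.00283) had the smallest p among them. With age in wild type 2 neighbours rose and 1 fell, or 6.98% of the 43, near the 5.4% of all genes. With age in knockout 5 rose and 6 fell, or 25.6%, near the 27.2% of all genes.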

How the data were processed

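The members and gene lists were chosen with earlier results of these data known. Gene values are signal in CPM on a TMM-scaled library, not logged, and transcript values are RPKM, both as deposited by the authors. Per the submitters' processing notes, kallisto 0.45.0, tximport 1.30.0, Ensembl 102 and edgeR 4.0.3 were used; the notes name a human build, but identifiers and coordinates are those of mouse GRCm38. Reads shared by members were thus divided by estimation. No counts were used here, so log2(CPM + 1) was fitted with limma 3.58.1 in R 4.3.3 (eBayes with trend, 4 group means, 12 libraries) over the 16486 of 53028 genes with at least 1 CPM in at least 3 libraries. Benjamini-Hochberg adjusted p under 0.05 over all genes was called. Summed levels are given as descriptions, with no test.

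GC content, length, constant exons and 31-base words came from GENCODE M21 transcripts of GRCm38. The trend over GC content and length used splines of 5 degrees of freedom and 98.7% of tested genes. Depth is an effective, TMM-scaled size, the inverse of the most frequent low CPM value of a library, which was taken as 1 read. Named are the C-type members, the 3 highest members per cluster by RPKM, up to 5 called members per cluster, direction and comparison by size of change, and up to 4 called genes per list and comparison, or 3 neighbours. Alternatives changed the pseudocount, filter, scaling, sex term, replicate block, trend removal, fitted groups, gene summary and single libraries. The sums without Pcdha4 or Pcdhgc4 and the division of the beta array were added after the data were seen. The fit was tested on simulated data. Tables were made with pandas 2.3.3 and numpy 2.4.6 in Python 3.11.15, and plots with matplotlib 3.10.9.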

Additional observations from a re-analysis of the deposited data

How the results depend on the processing

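None of the 34 calls of named members reversed its direction under the alternatives tried; members that did not pass were not followed. Over the settings that do not leave out a library, these calls were kept in 340 cases and lost in 68, and over those that leave out 1 library they were kept in 334 and lost in 74. The count of members called, 0 at P28, was 1 under quantile normalization, where 1.92% of all genes passed. It was 0 to 2 with 1 library left out, 2 without P28 knockout library 1 and 2 without P28 knockout library 2. At 12 months the count of 18 was 1 with the GC and length trend removed, where 6.64% of all genes passed. It was 11 with no expression filter and 9 with a sex term, where 20.5% and 30.1% did. With 1 library left out it was 8 to 21, where 21.5 to 47.1% of all genes passed, 21 being without P28 knockout library 2. It was 9 without 12-month knockout library 2, 8 without 12-month wild-type library 1 and 10 without wild-type library 2. For the difference between ages the count of 0 was 0 to 8 with 1 library left out. It was 3 without 12-month knockout library 3 and 8 without P28 knockout library 3, where 4.86% and 15.2% of all genes passed. For ageing in wild type the count of 11 was 5 with no expression filter, 24 with only the groups compared and 3 with a sex term. In these fits 2.66%, 13.9% and 2.19% of all genes passed. With 1 library left out the count was 3 to 19, where 2.54 to 10% of all genes passed, 19 being without P28 knockout library 2. For ageing in knockout the count of 15 was 5 with only the groups compared and 7 with a sex term, where 9.52% and 18.6% of all genes passed. With 1 library left out it was 11 to 16, where 15 to 33.6% of all genes passed. The cause of these shifts was not tested, apart from fewer libraries or fewer groups in a fit.

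The replicate numbers did not pair the libraries: same-numbered libraries of 2 groups correlated in their deviations from the group means between -0.33 and 0.31, over 12 pairs. With a replicate block the count went to 4 for ageing in wild type (Pcdhb10, Pcdhgb5, Pcdhgb7 and Pcdhgb8), 14 at 12 months, 14 for ageing in knockout and 0 in the other 2 comparisons. In that fit 4.05% of all genes passed for ageing in wild type, 35.8% at 12 months and 23.2% for ageing in knockout. At P28 0.358% passed, and for the difference between ages 0.0243%.

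Pcdhb1, at 0.315 to 0.693 CPM, was above the 3-read floor of every library but did not reach the filter and was not tested. Shared exons limit single alpha and gamma values. Sex is partly confounded with genotype and age. A member that did not pass with 3 libraries a group is not shown to be unchanged.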
